A study of Mus musculus with 36 samples.

Results

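Gene expression in Lrig1 GL and Lgr5 GL cells was compared in unwounded mouse tail skin, in the 6 libraries of 36 that precede injury (0w, 3 libraries per population). Lrig1 GL cells came from Lrig1-EGFP-ires-CreERT2 mice and Lgr5 GL cells from Lgr5-EGFP-ires-CreERT2 mice, each crossed with Rosa26-fl/STOP/fl-tdTomato, in which CreERT2 removes a stop cassette so that a cell and its progeny keep making tdTomato. Young adult mice of both groups had received 1 topical application of 4-hydroxytamoxifen on the tail and no wound when tdTomato+ epidermal cells were sorted, in small pools, for full-length mini-bulk RNA-seq. CreERT2 is made wherever Lrig1 or Lgr5 is active, so the pools hold labelled stem cells together with the progeny they produced between labelling and sorting. Each population was deposited as 1 count table, hence population and table cannot be told apart at any gene. Libraries were chosen by label alone and genes by being named in both tables, which left 18864 genes once Gm12415 was set aside, of which 12363 had enough counts to be tested.

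The hair follicle (HF) is built of stacked epithelial compartments. Lrig1, a membrane protein that restrains ErbB receptors, marks stem cells of the junctional zone (JZ), where the infundibulum (INFU), the sebaceous gland and the lower follicle meet. JZ progeny supply the INFU, the funnel that joins the interfollicular epidermis (IFE), and the sebaceous gland. Lgr5, an R-spondin receptor that raises Wnt signalling, marks stem cells of the lower bulge and hair germ, which fuel hair growth and are held at rest by BMP signals between growth phases.

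Both genes that drive the recombinase were higher in the population named for them, but neither difference passed the test. Lrig1 was at 244, 264 and 198 counts per 1000000 (CPM) in the 3 Lrig1 GL libraries and at 164, 106 and 55.3 CPM in the 3 Lgr5 GL libraries. Values are given in this order throughout, Lrig1 GL libraries 1, 2 and 3 against Lgr5 GL libraries a, b and c. CPM here are counts scaled by the TMM library sizes after Gm12415, described further on, was taken out. Every Lrig1 GL library was above every Lgr5 GL library, by 1.11 ± 0.43 (SE) on the log2 scale (Lrig1 minus Lgr5, n = 3 each, adjusted p = 0.416 in edgeR's quasi-likelihood test with Benjamini-Hochberg adjustment over all genes tested). Lgr5 was at 56.0, 105 and 285 CPM in Lrig1 GL and at 687, 675 and 460.3 CPM in Lgr5 GL libraries. The groups did not overlap, and Lrig1 GL library 3 was the highest of its group and Lgr5 GL library c the lowest of its own (log2 difference -2.03 ± 0.57, edgeR adjusted p = 0.229). Hence the transcripts of both label genes were present in both sorted populations. In bulk samples, fewer cells of a kind and less RNA per cell cannot be told apart.

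Of the sequences in front of the genes, 3 are shown: that of Lrig1, whose locus carries CreERT2, and those of Krt10 and Crabp1, a gene with higher counts in each population. They are the 250 bases before the RefSeq start on GRCm38.p6, read 5′ to 3′ on the strand of the gene, at chr6:94700146-94700395 (Lrig1, minus strand), chr11:99389365-99389614 (Krt10, minus strand) and chr9:54764498-54764747 (Crabp1, plus strand). Capitals mark TATAAA, searched on both strands together with the AP-1 motif TGANTCA. The first occurs in 12.4% and the AP-1 motif in 6.75% of the 32851 RefSeq promoter windows of this length. Within these windows TATAAA was found close to the Krt10 start alone, and TGANTCA in none of the 3.
Lrig1: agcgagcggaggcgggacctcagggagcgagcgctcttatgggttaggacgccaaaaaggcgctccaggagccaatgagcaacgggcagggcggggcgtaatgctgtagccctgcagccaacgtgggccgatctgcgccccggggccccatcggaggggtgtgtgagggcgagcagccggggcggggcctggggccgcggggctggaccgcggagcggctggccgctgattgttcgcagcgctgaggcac
Krt10: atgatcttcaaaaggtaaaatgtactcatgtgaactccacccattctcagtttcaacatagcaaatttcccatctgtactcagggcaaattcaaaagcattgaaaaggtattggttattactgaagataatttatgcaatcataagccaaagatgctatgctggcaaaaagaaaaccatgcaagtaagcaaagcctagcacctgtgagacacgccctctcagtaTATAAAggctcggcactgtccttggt
Crabp1: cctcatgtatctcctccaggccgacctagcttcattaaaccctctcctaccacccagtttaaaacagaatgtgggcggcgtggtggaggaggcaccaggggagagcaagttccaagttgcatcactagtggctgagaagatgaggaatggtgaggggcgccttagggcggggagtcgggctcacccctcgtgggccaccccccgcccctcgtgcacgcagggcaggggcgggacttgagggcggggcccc

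Keratins of keratinocytes were abundant in both sorted populations, which does not show that the pools held keratinocytes alone. Krt14, a keratin of basal cells, was at 13419.7, 7876 and 12322 CPM in Lrig1 GL and at 7094, 7086 and 6577 CPM in Lgr5 GL libraries. Krt5, its partner in the filament, was at 3801, 4873 and 3717 against 5645, 7363 and 6047 CPM. Both pairs of groups were apart, in opposite directions and by less than the log2 threshold of 1 (0.70 ± 0.28 for Krt14 and -0.62 ± 0.26 for Krt5, edgeR adjusted p = 0.444 and 0.468). Krt15, the keratin by which the bulge is usually recognised, was at 7358, 7257 and 4177 CPM in Lrig1 GL and at 22961, 25094 and 19357 CPM in Lgr5 GL libraries. It was thus abundant in both, with every Lgr5 GL library above the Lrig1 GL libraries (log2 difference -1.84 ± 0.31, edgeR adjusted p = 0.0936, and 0.0361 when the spread was estimated from all 36 libraries).

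Defining genes of the upper follicle split into those that separated the populations and those that did not. Gata6, a transcription factor of the JZ and the sebaceous duct, was at 93.4, 121 and 50.6 CPM in Lrig1 GL and at 19.99, 6.52 and 0.494 CPM in Lgr5 GL libraries. Krt79, a keratin of the INFU and the duct, was at 3095, 3386 and 3279 against 1607, 494 and 57.8 CPM. Both were above in every Lrig1 GL library, although the Lgr5 GL libraries differed among themselves far more than the Lrig1 GL libraries did for Krt79 (log2 differences 3.27 ± 1.03 and 2.18 ± 0.89, edgeR adjusted p = 0.295 and 0.447). Plet1, a surface antigen of the JZ, was at 98.5, 124 and 122 against 162, 36.3 and 37.5 CPM, with the highest value in an Lgr5 GL library.

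The defining genes of the bulge were split in the same way. Lhx2, a transcription factor that keeps bulge stem cells undifferentiated, was at 45.3, 134 and 33.2 CPM in Lrig1 GL and at 271, 214 and 245 CPM in Lgr5 GL libraries. Cd34, a surface marker of the bulge, was at 0, 160.3 and 67.9 against 333, 230.0 and 135 CPM. Lhx2 did not overlap, whereas 1 Lrig1 GL library exceeded the lowest Lgr5 GL library in Cd34, and another had no Cd34 count at all (log2 differences -1.78 ± 0.54 and -1.61 ± 1.19, edgeR adjusted p = 0.268 and 0.751). Sox9, needed to specify HF stem cells, was at 2468, 1320.3 and 1010.4 against 3331, 2889 and 1679.7 CPM. Nfatc1, which keeps bulge cells quiescent, was at 749.7, 547 and 485 against 536, 636 and 189.7 CPM. For both the groups overlapped.

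**Figure D1:**
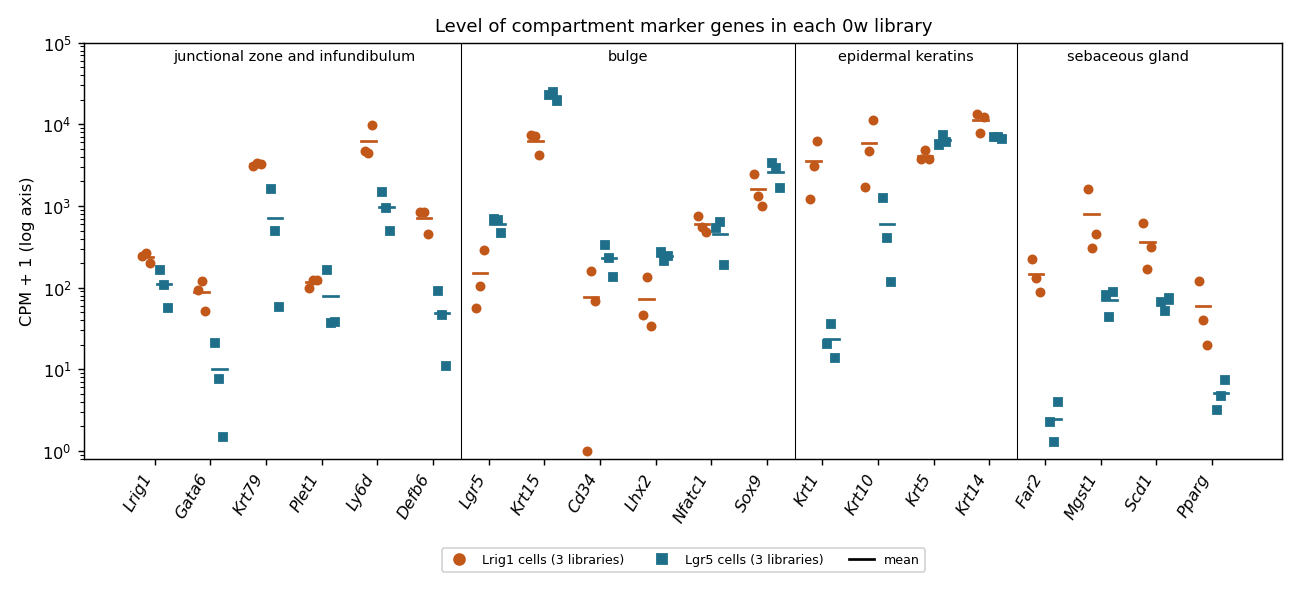
Level of compartment markers in each 0w library, as CPM + 1 on a log axis, with a circle for each of the 3 Lrig1 GL libraries, a square for each of the 3 Lgr5 GL libraries and a bar at the mean of each group. Krt1 and Far2 show the widest gaps, Krt15 is high in both populations, and Plet1, Nfatc1, Sox9 and Cd34 overlap.

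The libraries set the precision of these values. Lrig1 GL libraries held 1491780 to 2266757 counts and Lgr5 GL libraries 3775424 to 5270132. Gm12415, a lincRNA gene, took 29.0 to 45.4% of all counts in the Lgr5 GL libraries and 0 counts in the Lrig1 GL libraries, so 1490059 to 3513923 counts per library were used. The correlation of log2 CPM over genes (Pearson's r, a description, as genes are not independent) was 0.615 to 0.697 among Lrig1 GL libraries, 0.689 to 0.823 among Lgr5 GL libraries and 0.565 to 0.678 between populations, and the biological coefficient of variation was 0.734. The range within Lrig1 GL thus overlapped the range between populations, whereas the range within Lgr5 GL lay above it. No pair of libraries held the same counts within sampling noise, which does not by itself show that they are independent. Each was counted as 1 sample.

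Against this spread, 20 of 12363 genes passed both thresholds (adjusted p under 0.05 and a log2 difference above 1 in size). They were 9 genes higher in Lrig1 GL (0.0728% of those tested) and 11 higher in Lgr5 GL cells (0.089%). With the spread taken from all 36 libraries, 444 of 16652 genes passed at 0w, 177 higher in Lrig1 GL (1.06%) and 267 higher in Lgr5 GL (1.6%), and the 20 were among them. Leaving out a single library reduced the 20 calls to 7, 0 and 4 (without Lrig1 GL library 1, 2 or 3) and to 2, 1 and 1 (without Lgr5 GL library a, b or c), while the 20 kept their direction each time. Removing a trend with gene length gave 22 calls of which 7 were higher in Lrig1 GL.

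**Figure D2:**
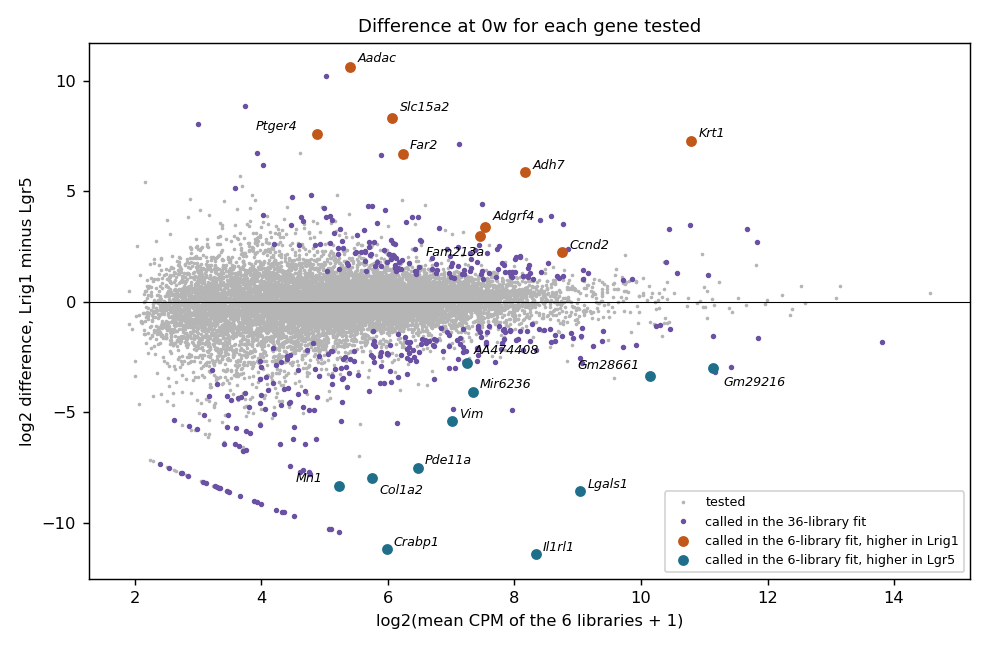
Log2 difference (Lrig1 minus Lgr5) of each of the 12363 genes tested at 0w, against log2 of the mean CPM of the 6 libraries plus 1. Large points are the 20 genes called from the 6 libraries and small dark points those called in the 36-library fit; the diagonal line of points at the lower left holds genes with 0 counts in Lrig1 GL libraries, whose differences depend on the prior count.

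Among the genes higher in Lrig1 GL cells, a keratin of differentiating IFE had the most counts. Krt1 (chr15:101845426-101850794), the type II keratin that replaces Krt5 when a basal cell leaves the basement membrane, was at 1228, 3095 and 6264 CPM in Lrig1 GL and at 19.4, 34.6 and 12.8 CPM in Lgr5 GL libraries. The lowest Lrig1 GL library was far above the highest Lgr5 GL library (log2 difference 7.29 ± 0.76, edgeR adjusted p = 0.0212). Its partner Krt10 was at 1692, 4742 and 11373 against 1269, 405 and 115 CPM. The Krt10 groups were apart by less than the Krt1 groups, with Lgr5 GL library a close to the lowest Lrig1 GL library (log2 difference 3.31 ± 0.94, edgeR adjusted p = 0.238, and 0.0459 in the 36-library fit).

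A group of the calls encodes enzymes of lipid, retinol and redox metabolism. Far2 (chr6:148047259-148182758), a fatty acyl-CoA reductase that makes fatty alcohols for the wax of sebum, was at 222, 132 and 87.3 CPM in Lrig1 GL and at 1.25, 0.283 and 2.96 CPM in Lgr5 GL libraries (log2 difference 6.68 ± 0.86, edgeR adjusted p = 0.0432). Aadac (chr3:60025717-60040160), an esterase that hydrolyses lipid esters, was at 114, 73.4 and 60.9 CPM in Lrig1 GL and had no count in Lgr5 GL libraries, which is at least 243-fold higher against a floor of 3 counts over the group (edgeR adjusted p = 0.0432). Neither gene came near overlapping between the populations. Adh7 (chr3:138217760-138233382), an alcohol dehydrogenase that oxidises retinol and is used by stratified epithelia, was at 939, 382 and 372 against 2.81, 6.799 and 20.2 CPM (log2 difference 5.87 ± 0.80, edgeR adjusted p = 0.0434). Fam213a (chr14:40993740-41013788), a peroxiredoxin-like protein, was at 390.0, 291 and 249 against 51.2, 31.7 and 35.6 CPM (log2 difference 2.97 ± 0.37, edgeR adjusted p = 0.0432). Both were apart in every library, with the narrower spread in Fam213a.

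The other calls higher in Lrig1 GL encode proteins of the membrane and of the cell cycle. Ptger4 (chr15:5206661-5244187), a receptor for prostaglandin E2, was at 62.1, 50.95 and 57.5 CPM in Lrig1 GL and at 0.312, 0 and 0.494 CPM in Lgr5 GL libraries, where 2 counts in all make the ratio 246 (95% interval 67.6 to 2044). Slc15a2 (chr16:36750177-36784962), a transporter of small peptides, was at 44.8, 228 and 123 against 0.312, 0 and 0.988 CPM, a ratio of 411 (95% interval 140.2 to 1998). Both ratios carry exact intervals that cover counting error only, since reads without molecular identifiers are not independent molecules (edgeR adjusted p = 0.0469 and 0.0434). Adgrf4 (chr17:42656891-42692284), an orphan adhesion G protein-coupled receptor, was at 271, 289 and 449 against 43.4, 34.8 and 19.3 CPM (log2 difference 3.36 ± 0.44, edgeR adjusted p = 0.0432). Ccnd2 (chr6:127125162-127152193), cyclin D2, which drives cells from G1 into S phase, was at 852, 516 and 761 against 137, 152 and 165 CPM, the smallest log2 difference among the calls (2.23 ± 0.31, edgeR adjusted p = 0.0469). For Adgrf4 and Ccnd2 the lowest Lrig1 GL library stood well above all Lgr5 GL libraries.

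The 11 genes higher in Lgr5 GL cells were led by transcripts nearly absent from Lrig1 GL libraries. Il1rl1 (chr1:40429570-40465415), the receptor of interleukin-33, was at 0, 0.439 and 0 CPM in Lrig1 GL and at 438, 446 and 1044 CPM in Lgr5 GL libraries. A single Lrig1 GL count against 5091 gave a ratio of 3203 (95% interval 575 to 126520.0) (edgeR adjusted p = 0.00432). Pde11a (chr2:75989141-76338774), a phosphodiesterase that breaks down cyclic nucleotides, was at 1.12, 0.878 and 0.692 against 105, 145 and 274 CPM (log2 difference -7.51 ± 0.68, edgeR adjusted p = 0.0138). Crabp1 (chr9:54764748-54773110), which binds retinoic acid in the cytosol, had no count in Lrig1 GL libraries and was at 97.1, 116 and 159 CPM in Lgr5 GL libraries, at least 218-fold higher against the same floor (edgeR adjusted p = 0.0319). In all 3 genes Lgr5 GL library c was the highest.

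The same held for transcripts usually found in mesenchymal cells. Vim (chr2:13573927-13582826), the intermediate filament vimentin, was at 5.04, 7.91 and 4.16 CPM in Lrig1 GL and at 182, 203 and 364 CPM in Lgr5 GL libraries (log2 difference -5.42 ± 0.52, edgeR adjusted p = 0.0146). Lgals1 (chr15:78926725-78930465), galectin-1, was at 0, 1.76 and 6.92 against 791, 901 and 1455 CPM (log2 difference -8.58 ± 0.92, edgeR adjusted p = 0.0212). Col1a2 (chr6:4504814-4541544), a chain of type I collagen, was at 1.12, 0 and 0 against 68.7, 82.7 and 164 CPM, a ratio of 266 (95% interval 73.3 to 2198) on 2 Lrig1 GL counts (edgeR adjusted p = 0.0434). Again library c was the highest and the groups were far apart. Mn1 (chr5:111417362-111457033), a transcriptional coregulator, was at 0, 0.439 and 0 against 52.8, 40.2 and 126 CPM, a ratio of 356 (95% interval 63.6 to 14088) (edgeR adjusted p = 0.0460). As for Vim, no Lrig1 GL library came near an Lgr5 GL library. Mir6236, annotated as a miRNA locus (chr9:110281287-110281409), was at 10.6, 14.5 and 29.1 against 179, 298 and 435 CPM (log2 difference -4.08 ± 0.55, edgeR adjusted p = 0.0434), and its counts cannot be taken for a mature miRNA in libraries primed on poly(A). AA474408, a transcript of unknown function (chr7:110057987-110061325), was at 38.0, 43.0 and 33.9 against 176, 300.0 and 314 CPM (log2 difference -2.78 ± 0.38, edgeR adjusted p = 0.0434). Both were detected in every library of either population.

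Markers of cell types that the sort could have held were summed over each whole list. The fibroblast list of 13 genes reached 52.0 to 209.5 CPM in Lrig1 GL and 936 to 1194 CPM in Lgr5 GL libraries. Of its 8 members tested, 7 had all Lgr5 GL libraries above all Lrig1 GL libraries and 0 the reverse, beside 11.5% and 7.91% of all genes tested, and the median log2 difference was -3.47 beside -0.0026 over all genes. Col1a2, with 2 counts over the Lrig1 GL libraries, and Col3a1, with 3, passed the count filter through the Lgr5 GL libraries alone. Their direction was thus nearly fixed once they were tested, and the share and the median are descriptions only. Vim and Col1a2 are themselves on this list. The level was carried unevenly, since Col6a1 (514, 346 and 250.4 CPM) and Vim were far above Col1a1 (22.8, 33.7 and 62.7 CPM) and Col3a1 (8.75, 5.10 and 15.3 CPM) in the Lgr5 GL libraries, Lum was at 0 in all 6 libraries and Pdgfrb had 4 counts in Lgr5 GL library b alone. Acta2, smooth muscle actin, was at 0.560, 0.439 and 26.3 against 146, 249 and 357 CPM. It made up most of the endothelial and pericyte list in the Lgr5 GL libraries and in Lrig1 GL library 3, and the list reached 7.03 to 31.9 CPM in Lrig1 GL and 162 to 371 CPM in Lgr5 GL libraries with Cldn5 at 0 throughout. The melanocyte list reached 7.62 to 24.2 and 99.6 to 124 CPM, in the Lgr5 GL libraries mostly Mitf (3.36, 11.0 and 0.692 against 51.5, 103 and 70.6 CPM), and the Merkel and neural list 14.5 to 22.2 and 44.0 to 58.9 CPM, in the Lgr5 GL libraries mostly Krt8 (3.36, 6.59 and 10.4 against 38.1, 52.4 and 33.6 CPM). The immune list reached 0 to 37.3 and 3.12 to 36.3 CPM, with Trac and Cd52 at 0, the muscle list 0.878 to 18.7 and 8.50 to 45.9 CPM, and the blood list 0.560 to 3.46 and 3.68 to 5.93 CPM. Dpt of the fibroblast list, and 9 of 16 immune markers, are named in neither table and were not used here. The part of these cell types in the 11 calls was not tested.

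A further measurement stood beside the Lgr5 GL calls. Sv2b, a synaptic vesicle glycoprotein gene named in the Lgr5 GL table alone, was at 946, 1049 and 2324 CPM in the Lgr5 GL libraries at 0w and so above Lgals1 in each library. Across the 18 Lgr5 GL libraries of all time points Sv2b spanned a 6.15-fold range, and the ratio of Pde11a to Sv2b spanned 1.38-fold. The same ratio spanned 2.51-fold for Il1rl1, 2.69-fold for Lgals1, 2.74-fold for Vim, 2.98-fold for Acta2, 3.57-fold for AA474408, 4.18-fold for Col1a2, 4.63-fold for Mir6236 and 7.80-fold for Crabp1. It spanned 7.79-fold for Krt5, 33.8-fold for Krt15, 81.7-fold for Lgr5 and 221-fold for Mn1. Among the other calls of that direction it spanned 5.99-fold for Gm28661 and 9.82-fold for Gm29216. Of the 11 genes called higher in Lgr5 GL, the ratio thus varied less than Sv2b itself for 8 and more for Crabp1, Mn1 and Gm29216. A ratio that varied less than Sv2b was not particular to the calls. Among genes not called it spanned 1.62-fold for Cep57l1, 2.00-fold for Polr3a and 5.31-fold for Gja1, but 7.31-fold for Krt14. Sv2b and the genes set beside it were chosen after their values were seen, the 18 libraries share 1 table, and the part of Sv2b in the calls was not tested.

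**Figure D3:**
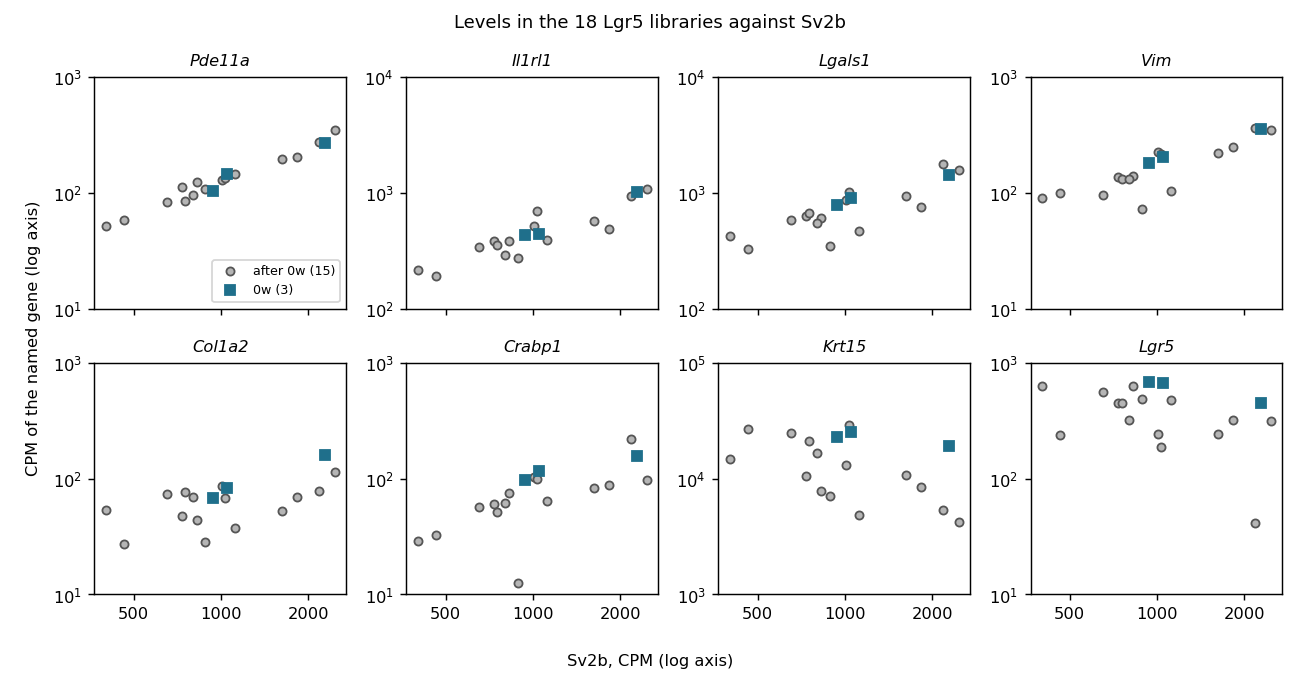
CPM of 8 genes against CPM of Sv2b in the 18 Lgr5 GL libraries, both on log axes, with squares for the 3 libraries at 0w and circles for the 15 later libraries. Pde11a, Il1rl1, Lgals1 and Vim lie along a rising line, while Krt15 and Lgr5 are scattered.

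The remaining calls, Gm28661 and Gm29216, are unprocessed pseudogenes on chromosome 1 that copy mitochondrial genes. Gm28661 (chr1:24614885-24615565) was at 144, 202 and 253 CPM in Lrig1 GL and at 1520.0, 1397 and 3254 CPM in Lgr5 GL libraries (log2 difference -3.37 ± 0.44, edgeR adjusted p = 0.0432). Gm29216 (chr1:24615706-24616197) was at 354, 527 and 612 against 3025, 3299 and 5708 CPM (log2 difference -3.01 ± 0.38, edgeR adjusted p = 0.0432). Both were well separated between populations. However, all 651 stretches of 31 bases in Gm28661 occur in mt-Co2, and 97.2% of the 462 such stretches in Gm29216 occur in mt-Co1. Over its 492 bases Gm29216 is 98.8% identical to mt-Co1, with 6 differing bases, all within the first 13: A3T, T4C, G6A, G7A, A9C and T13A (the base of Gm29216, its position counted from 1 at the 5′ end of Gm29216, then the base of mt-Co1). The first 100 bases of Gm29216 and the matching bases of mt-Co1, from base 1054, are printed because counts of the pair rest on them, with the differing bases in capitals.
Gm29216: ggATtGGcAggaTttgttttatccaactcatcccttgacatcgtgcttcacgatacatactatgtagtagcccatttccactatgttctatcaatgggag
mt-Co1: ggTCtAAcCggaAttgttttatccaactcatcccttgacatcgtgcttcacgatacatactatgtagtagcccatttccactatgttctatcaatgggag

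Beyond base 13 no base separates the copy from its source, hence counts of the pairs are uncertain. Counts assigned to the mitochondrial genes did not show the difference, but their split from the counts of the copies is uncertain. In every Lgr5 GL library more counts were assigned to Gm28661 than to mt-Co2, and in every Lrig1 GL library fewer. The assigned counts therefore cannot show whether mt-Co1 and mt-Co2 differed between the populations, and the sum of each pair was not tested. Counts assigned to mt-Co1 were at 4522, 3759 and 4249 CPM in Lrig1 GL and at 3259, 3327 and 5276 CPM in Lgr5 GL libraries (log2 difference 0.08 ± 0.29), and those assigned to mt-Co2 at 645, 286 and 409 against 372, 385 and 770.0 CPM (log2 difference -0.19 ± 0.42, edgeR adjusted p = 0.964 and 0.932). Over the 16 mitochondrially encoded transcripts tested the median log2 difference was 0.06 (-0.12 to 0.43 without 1 library).

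Lists of genes with a common role are described next by the members whose 3 libraries of one population all lay above the 3 of the other, to be read beside 7.91% (Lrig1 GL above) and 11.5% (Lgr5 GL above) of all genes tested, and beside a median log2 difference of -0.0026 over all genes. Calls from the 36-library fit are given with them, to be read beside 1.06% (higher in Lrig1 GL) and 1.6% (higher in Lgr5 GL) of all genes tested there. A gene low in one population could pass the count filter through the other alone, in the lists as among all genes. The median of every list was the same with members at 0 in one population placed at their bound. Of all list members together, 6 were among the 20 calls (Krt1, Far2, Ccnd2, Crabp1, Vim and Col1a2). This count carries no share of the members tested and is not set against that of all genes.

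**Figure D4:**
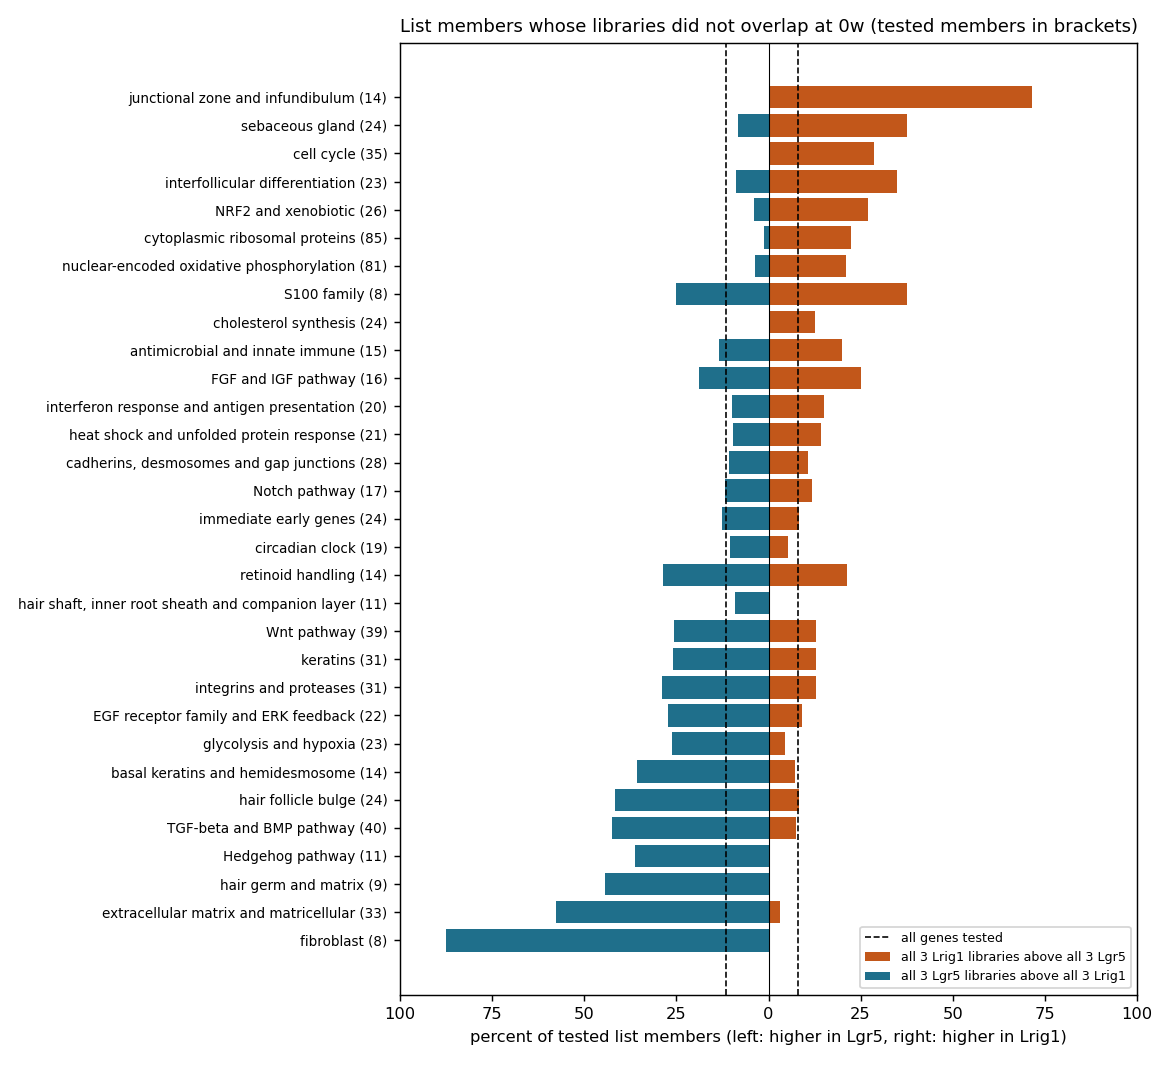
Percentage of the tested members of each list whose 3 libraries of one population all lay above the 3 of the other at 0w, to the right for Lrig1 GL above and to the left for Lgr5 GL above, with the number of tested members in brackets. Dashed lines mark the percentages over all genes tested (7.91% and 11.5%); lists with under 8 tested members are not drawn. The JZ and INFU list extends farthest to the right of those drawn, and the fibroblast and extracellular matrix lists farthest to the left.

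The JZ and INFU list leaned to Lrig1 GL cells. Of 14 members tested, 10 had all Lrig1 GL libraries above and 0 the reverse (median log2 difference 1.55, 1.32 to 2.25 without 1 library). Ly6d, a GPI-anchored surface protein of the upper follicle, was at 4716, 4517 and 9784 CPM in Lrig1 GL and at 1465, 942 and 497 CPM in Lgr5 GL libraries. Lgr5 GL library c was the lowest of the 6. Defb6, a beta-defensin, was at 843, 849 and 452 against 90.6, 45.3 and 9.88 CPM, and Ly6a, which encodes Sca-1, was at 355, 202 and 458 against 4.37, 4.82 and 84.0 CPM. These 3 were called in the 36-library fit (edgeR adjusted p = 0.00142, 0.0466 and 0.0273), and the Lrig1 GL libraries were above in each, Lgr5 GL library c holding most of the Ly6a of its group. Among the members that overlapped were Klk10 (415, 278 and 232 against 832, 576 and 5.93 CPM), a secreted protease, and Fgfr3 (148, 175 and 205 against 210.2, 340.0 and 189 CPM), an FGF receptor. Of 14 Ly6 family genes named for both populations 7 were tested, and 6 of the 7 had all Lrig1 GL libraries above. The 6 include Ly6e-ps1, a pseudogene by its name, beside Ly6e. Ly6a, Ly6d and Ly6g6c among the 6 also belong to the JZ and INFU list.

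The bulge list leaned the other way. Of 24 members tested, 10 had all Lgr5 GL libraries above and 2 all Lrig1 GL libraries above (median -1.12, -1.71 without Lrig1 GL library 2 and -1.40 to -0.92 without any other). Shisa2, an antagonist of receptor maturation in Wnt and FGF signalling, was at 196, 199 and 15.9 CPM in Lrig1 GL and at 1081, 1039 and 681 CPM in Lgr5 GL libraries, and Tnc, the matrix protein tenascin C, was at 0, 22.4 and 28.4 against 258, 207 and 115 CPM. Together with Krt15 they passed in the 36-library fit (edgeR adjusted p = 0.0318 and 0.013). Tbx1, a transcription factor of bulge stem cells, was at 92.9, 132 and 80.3 against 279, 299 and 167 CPM, and Fgf18, which prolongs the resting phase of the hair cycle, was at 0, 7.91 and 0.692 against 43.7, 116 and 28.2 CPM. Their groups were apart without a call in either fit. The 2 exceptions were Sostdc1 (1155, 1117 and 1144 against 701, 511 and 343 CPM), an antagonist of BMP and Wnt signals, and Fst (148, 163 and 102 against 15.3, 80.7 and 5.93 CPM), which sequesters activins. Of 9 hair germ and matrix members, 4 had all Lgr5 GL libraries above (Cux1, Hoxc13, Lef1 and Lgr4). Lgr4, a paralogue of Lgr5 that binds the same ligands, was at 199, 561 and 218 against 1260.4, 1189 and 1591 CPM and was called in the 36-library fit (log2 difference -2.02, edgeR adjusted p = 0.00630). It was present in both populations at levels that did not overlap.

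Genes of IFE differentiation leaned to Lrig1 GL cells and those of the basal layer to Lgr5 GL cells. Of 23 differentiation genes tested, 8 had all Lrig1 GL libraries above and 2 the reverse (median 1.75, 0.77 without Lrig1 GL library 3 and at least 1.26 without any other). In the 36-library fit 5 of 24 were called, all higher in Lrig1 GL, beside 1.06% of all genes tested there. Besides Krt1 and Krt10 these were Krtdap, a secreted protein of suprabasal cells (2122, 1816 and 3673 against 402, 228 and 134 CPM), Calm4, a calcium-binding protein of the granular layer (1509, 1962 and 6217 against 428, 349 and 96.8 CPM), and Tgm3, a transglutaminase that cross-links the envelope (16.2, 37.3 and 101 against 3.75, 0.850 and 0.494 CPM). Lrig1 GL library 3 held the highest value of each of these 5 genes. The exceptions were Cdsn, which joins corneocytes (29.1, 292 and 47.8 against 902, 689 and 779.8 CPM), and Sbsn, suprabasin (65.5, 191 and 211 against 579.8, 548 and 286 CPM), with every Lgr5 GL library above. In the list of basal keratins and hemidesmosomes, which anchor basal cells, 5 of 14 members had all Lgr5 GL libraries above and 1 (Krt14) the reverse. Summed over this list the populations overlapped (18936 to 20778 CPM in Lrig1 GL and 18091 to 24158 CPM in Lgr5 GL libraries). Col17a1, a transmembrane collagen of the hemidesmosome on which HF stem cells depend, was at 937, 1758 and 751 against 4130.2, 4190.3 and 1823 CPM, and Lamb3, a chain of laminin-332, at 207, 372 and 233 against 972, 865 and 525 CPM. Both were called in the 36-library fit (log2 differences -1.54 and -1.52, edgeR adjusted p = 0.00809 and 0.00384), as was Itgb1. Itga6 (136, 393 and 229.9 against 269.6, 217 and 187 CPM) and Trp63 (429, 643 and 273 against 329, 402 and 326 CPM) overlapped.

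Sebaceous genes also leaned to Lrig1 GL cells, though with members on both sides. Of 24 tested, 9 had all Lrig1 GL libraries above and 2 the reverse (median 1.23, 0.92 to 1.24 without 1 library). Mgst1, a microsomal glutathione transferase of sebocytes, was at 1629, 304 and 458 CPM in Lrig1 GL and at 81.2, 42.2 and 87.9 CPM in Lgr5 GL libraries. Scd1, which makes monounsaturated fatty acids, was at 621, 166 and 309.5 against 66.5, 50.1 and 73.6 CPM, and Pparg, the nuclear receptor that drives sebocyte differentiation, at 119, 39.1 and 18.7 against 2.19, 3.68 and 6.42 CPM. Library 1 was the highest Lrig1 GL library in each, and the groups were apart (log2 differences 3.50 ± 0.68, 2.53 ± 0.51 and 3.84 ± 0.96, edgeR adjusted p = 0.117, 0.127 and 0.168, and 9.84e-04, 0.0104 and 0.0176 in the 36-library fit). Elovl6, a fatty acid elongase, was at 81.7, 141 and 38.8 against 6.87, 16.4 and 3.46 CPM, and the melanocortin receptor Mc5r at 340.2, 58.0 and 58.9 against 0, 4.25 and 0 CPM. On the other side, the desaturase Fads2 had no count in Lrig1 GL libraries and was at 12.2, 16.4 and 8.40 CPM in Lgr5 GL libraries, at least 23.9-fold higher (edgeR adjusted p = 0.00867 in the 36-library fit), while Fasn, fatty acid synthase, overlapped (75.5, 119 and 147 against 81.2, 62.9 and 216 CPM).

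Proliferation genes were higher in Lrig1 GL cells in the list median (0.91, 0.42 without Lrig1 GL library 1, 1.52 without Lgr5 GL library c and 0.70 to 1.21 without any other). Of 35 cell cycle genes tested, 10 had all Lrig1 GL libraries above and 0 the reverse, and 25 overlapped. Summed over this list the populations overlapped as well (2040 to 4900 CPM in Lrig1 GL and 1088 to 2680 CPM in Lgr5 GL libraries). Mki67, the antigen of cycling cells, was at 140.4, 121 and 149.6 CPM in Lrig1 GL and at 4.06, 60.3 and 49.9 CPM in Lgr5 GL libraries. Aurkb, a kinase of chromosome segregation, was at 169, 48.8 and 61.6 against 8.75, 8.78 and 25.7 CPM, and Ccnd1, cyclin D1, at 109, 123 and 142 against 38.7, 47.9 and 56.8 CPM. Aurkb and Ccnd1 joined Ccnd2 in the 36-library fit (edgeR adjusted p = 0.0250 and 0.0318), with Mki67 at 0.132. Lgr5 GL library a stood lowest in Mki67, and Top2a overlapped (96.8, 100.1 and 74.8 against 16.2, 20.7 and 108 CPM) through a high value in library c.

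The Wnt pathway list leaned to Lgr5 GL cells, with single members in the opposite order. Of 39 tested, 10 had all Lgr5 GL libraries above (25.6% beside 11.5% of all genes). All Lrig1 GL libraries were above in 5 (12.8% beside 7.91%), a share nearer to that of all genes. The median was -0.45 (-0.26 without Lgr5 GL library a, -0.29 without Lrig1 GL library 3 or Lgr5 GL library c and -0.38 to -0.32 without any other). On the receptor side, Fzd2 was at 7.83, 11.0 and 5.54 CPM in Lrig1 GL and at 84.3, 101 and 61.7 CPM in Lgr5 GL libraries, whereas Fzd10 was at 54.8, 83.0 and 336 against 41.9, 22.7 and 5.43 CPM. The receptors thus stood in opposite order (edgeR adjusted p = 0.0141 and 0.0105 in the 36-library fit). Of the ligands, Wnt16 was at 27.4, 39.5 and 6.92 CPM in Lrig1 GL with no count in Lgr5 GL libraries (at least 79.0-fold higher), and Wnt4 was at 93.4, 112 and 110.1 against 45.6, 38.5 and 23.7 CPM (edgeR adjusted p = 0.00957 and 0.0446 in the 36-library fit). Both ligands were higher in Lrig1 GL cells. Of the inhibitors, Apcdd1 was at 73.9, 60.6 and 50.6 against 8.43, 3.68 and 0 CPM and was called higher in Lrig1 GL (edgeR adjusted p = 0.0275), while Wif1 (0, 1.76 and 0 against 55.3, 33.4 and 182 CPM) and Sfrp1 (67.1, 174 and 33.9 against 401, 392 and 197 CPM) had every Lgr5 GL library above without a call.

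Within the TGF-β and BMP pathway, 17 of 40 members tested had all Lgr5 GL libraries above and 3 the reverse (median -0.73, -1.15 without Lrig1 GL library 2 and -0.89 to -0.49 without any other). The 17 included ligands, antagonists and targets. The ligand Bmp6 was at 1.68, 1.32 and 0.692 CPM in Lrig1 GL and at 25.3, 35.1 and 7.90 CPM in Lgr5 GL libraries and Bmp2 at 48.7, 23.7 and 29.1 against 129.9, 137 and 81.0 CPM, while the antagonist Nog was at 0, 1.76 and 4.16 against 22.8, 18.4 and 19.3 CPM. The Id genes, targets of BMP that block differentiation factors, were all on the same side, among them Id1 (101, 90.0 and 57.5 against 299, 205 and 163 CPM) and Id2 (92.3, 115 and 102 against 405, 487 and 165 CPM). None of these passed a fit (edgeR adjusted p = 0.0980, 0.263, 0.194, 0.0691 and 0.0956 in the 36-library fit). Smad1, which carries the BMP signal to the nucleus, was at 24.6, 46.1 and 63.7 against 143, 210.2 and 108 CPM and passed there (edgeR adjusted p = 0.0115), together with Ltbp3, Fstl1 and Eng. On the Lrig1 GL side stood Bmp7 (88.4, 138 and 124 against 50.6, 70.0 and 43.5 CPM), Fst and Tgfb3.

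In the Hedgehog pathway, 4 of 11 members tested had all Lgr5 GL libraries above and 0 the reverse (median -1.13, -1.65 to -0.88 without 1 library). Gli2, the main activating transcription factor, was at 3.92, 22.8 and 9.00 CPM in Lrig1 GL and at 89.7, 97.2 and 202 CPM in Lgr5 GL libraries, and Gas1, a co-receptor, at 274, 501 and 201 against 831, 826 and 584 CPM. Both were called in the 36-library fit (log2 differences -3.38 and -1.18, edgeR adjusted p = 0.0177 and 0.0369). The target Gli1 overlapped (0, 25.9 and 21.5 against 25.3, 19.5 and 26.7 CPM). Among ErbB family members and feedback inhibitors of ERK, 6 of 22 tested had all Lgr5 GL libraries above and 2, Lrig1 and the ligand Nrg4, the reverse. Spry2, an inhibitor of ERK signalling that the pathway itself induces, was at 73.9, 53.1 and 61.6 against 273, 240.0 and 327 CPM (log2 difference -2.15 ± 0.33, edgeR adjusted p = 0.0562, and 2.93e-04 in the 36-library fit). Dusp6, a phosphatase of ERK, was at 17.3, 54.9 and 34.6 against 166, 164 and 169 CPM without a call. The Notch list was close to the background, with 2 of 17 members on each side. In the FGF and IGF list 4 of 16 members were on the Lrig1 GL side and 3 on the other, Fgfbp1 (591, 232 and 488 against 161, 96.9 and 58.3 CPM), which releases FGFs from the matrix, and Igfbp2 (131, 38.2 and 120.5 against 4.69, 8.78 and 0.494 CPM) being called higher in Lrig1 GL in the 36-library fit (edgeR adjusted p = 0.0241 and 0.0497).

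Extracellular matrix genes leaned to Lgr5 GL cells. Of 33 tested, 19 had all Lgr5 GL libraries above and 1 the reverse (median -1.22, -1.70 to -1.09 without 1 library). Col18a1, a basement membrane collagen, was at 123, 199.9 and 217 CPM in Lrig1 GL and at 696, 645 and 511 CPM in Lgr5 GL libraries. Sparc, which modulates contact between cells and matrix, was at 249, 330.3 and 146 against 1058, 1293 and 539 CPM, and Mfge8, a bridging protein for integrins, at 21.8, 72.5 and 22.2 against 208, 245 and 249.9 CPM. The 3 were called in the 36-library fit (edgeR adjusted p = 0.00479, 0.0116 and 0.00733) with Ecm1, Col17a1 and Tnc. The exception, Thbs2, an inhibitor of angiogenesis, was at 749, 141 and 175 against 41.5, 61.2 and 100.3 CPM and called higher in Lrig1 GL (edgeR adjusted p = 0.0165), with library 1 far above the others. Inhibitors of metalloproteases were on the Lgr5 GL side as well. Timp1 had no count in Lrig1 GL libraries and was at 25.6, 44.5 and 37.0 CPM in Lgr5 GL libraries (at least 65.8-fold higher), and Timp3 was at 41.4, 37.8 and 113 against 289, 301 and 231 CPM (edgeR adjusted p = 0.00285 and 0.0466 in the 36-library fit). The protease Klk8, which sheds corneocytes, was at 33.0, 167 and 408 against 30.3, 19.3 and 10.9 CPM and was called higher in Lrig1 GL (edgeR adjusted p = 0.0326). The fibroblast list given above was also higher in Lgr5 GL cells, and Sv2b is named in their table alone. Both were highest in Lgr5 GL library c. The summed matrix list (13492, 13200 and 8340 CPM) includes abundant members such as Sparc and Col17a1 (4130.2, 4190.3 and 1823 CPM). Its order over the libraries therefore does not show that of its less abundant members. The part of the fibroblast list or of Sv2b in the matrix list was not tested. Of the junction genes, 3 of 28 lay on each side, with Gja1, the gap junction protein connexin 43, at 164, 102 and 196 against 775, 693 and 1211 CPM (log2 difference -2.54 ± 0.38, edgeR adjusted p = 0.0516, and 9.84e-04 in the 36-library fit).

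Metabolic and stress lists varied in how many members were separated. Of 26 NRF2 and xenobiotic genes, 7 had all Lrig1 GL libraries above and 1 the reverse. Aldh3a1, an aldehyde dehydrogenase, was at 867, 571 and 442 CPM in Lrig1 GL and at 36.5, 15.3 and 93.8 CPM in Lgr5 GL libraries, and Gpx1, glutathione peroxidase, at 1016, 565 and 879 against 327, 341 and 318 CPM. Both were called in the 36-library fit (edgeR adjusted p = 0.0304 and 0.00449). Of 14 retinoid genes tested, 3 stood on the Lrig1 GL and 4 on the Lgr5 GL side, with Stra6, a receptor for retinol uptake, on the Lrig1 GL side (99.03, 50.5 and 22.2 against 0, 7.37 and 0.988 CPM) and Cyp26b1, which degrades retinoic acid, on the Lgr5 GL side (0, 0.439 and 0 against 35.6, 83.3 and 21.2 CPM, edgeR adjusted p = 0.0142 in the 36-library fit). Of 24 immediate early genes, which respond to tissue dissociation, 2 were on the Lrig1 GL and 3 on the Lgr5 GL side, and Fos overlapped (0.560, 93.6 and 221 against 77.8, 14.4 and 67.2 CPM). Hair shaft and inner root sheath genes had 1 of 11 tested members, Krt75, on the Lgr5 GL side and 0 on the other. Among the wound keratins, Krt6a was at 589, 711 and 671 against 2240.3, 2528 and 1004 CPM, every Lgr5 GL library being above without a call (edgeR adjusted p = 0.0603 in the 36-library fit), and Krt17 overlapped. Heat shock (3 and 2 of 21), interferon (3 and 2 of 20), antimicrobial (3 and 2 of 15), glycolysis (1 and 6 of 23), cholesterol (3 and 0 of 24) and clock genes (1 and 2 of 19) are given as the number with Lrig1 GL above, then with Lgr5 GL above. The antimicrobial median, 1.95, changed sign without Lrig1 GL library 1 (-0.18) and was 0.68 without Lrig1 GL library 2. Small shifts ran through large families, with 19 of 85 ribosomal protein genes and 17 of 81 nuclear oxidative phosphorylation genes on the Lrig1 GL side against 1 and 3 on the other (medians 0.43 and 0.49, and 0.71 and 0.82 without Lgr5 GL library c). The 17 include Atp5c1-ps and Atp5l2-ps, pseudogenes by their names.

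Whether the 0w differences recurred was asked in the 30 libraries after injury (pw1 at 1w, 2w, 4w and 8w, and pw2 at 1w), none of which entered the 0w test. In the mean difference over these times, 1130 of 12363 genes were called higher in Lrig1 GL (9.14%) and 1368 higher in Lgr5 GL (11.1%). Of the 20 genes called at 0w, 20 differed in the same direction and 18 were called again, 9 of 9 for Lrig1 GL and 9 of 11 for Lgr5 GL. Krt1 had a mean later difference of 2.97 and Il1rl1 of -10.63 on the log2 scale (edgeR adjusted p = 1.95e-05 and 6.98e-15). The exceptions were Gm28661 (-0.07) and Gm29216 (-0.20), whose 0w and later differences themselves differed, as did those of 26 of 16652 genes in the 36-library fit (0.156%). Of the 978 genes whose Lrig1 GL libraries were all above at 0w, 80.1% had the same sign later and 26.4% were called in that direction. Of the 1416 with Lgr5 GL above, 82.9% had the same sign and 40.3% were called. Over all genes tested, 48.3% had the sign of Lrig1 GL above later and 51.7% that of Lgr5 GL above. The later libraries come from the same 2 tables, so this does not part population from table.

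Among the compartment genes, several that missed the test at 0w passed it in the later libraries. Lgr5 had a mean later difference of -3.06, Krt15 of -3.08, Cd34 of -2.83, Gata6 of 2.97 and Krt10 of 3.46 (edgeR adjusted p = 6.84e-07, 7.81e-10, 7.89e-04, 6.80e-06 and 1.55e-07), in each case with the sign seen at 0w at 5 of 5 later times. Of the JZ and INFU list 8 of 14 members were called higher in Lrig1 GL and 0 in Lgr5 GL, and of the bulge list 15 of 24 were called higher in Lgr5 GL and 0 in Lrig1 GL. Over all genes tested, 9.14% were called higher in Lrig1 GL and 11.1% in Lgr5 GL. The lean of the basal keratin and hemidesmosome list did not recur, with 0 of 14 members called higher in Lgr5 GL and 1 in Lrig1 GL (median later difference 0.02). Lrig1 itself did not keep its order. Its mean later difference was -0.38 (edgeR adjusted p = 0.0391), with the 0w sign at 2 of 5 later times. Pparg was at 0.22 with the 0w sign at 3 of 5 times.

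**Figure D5:**
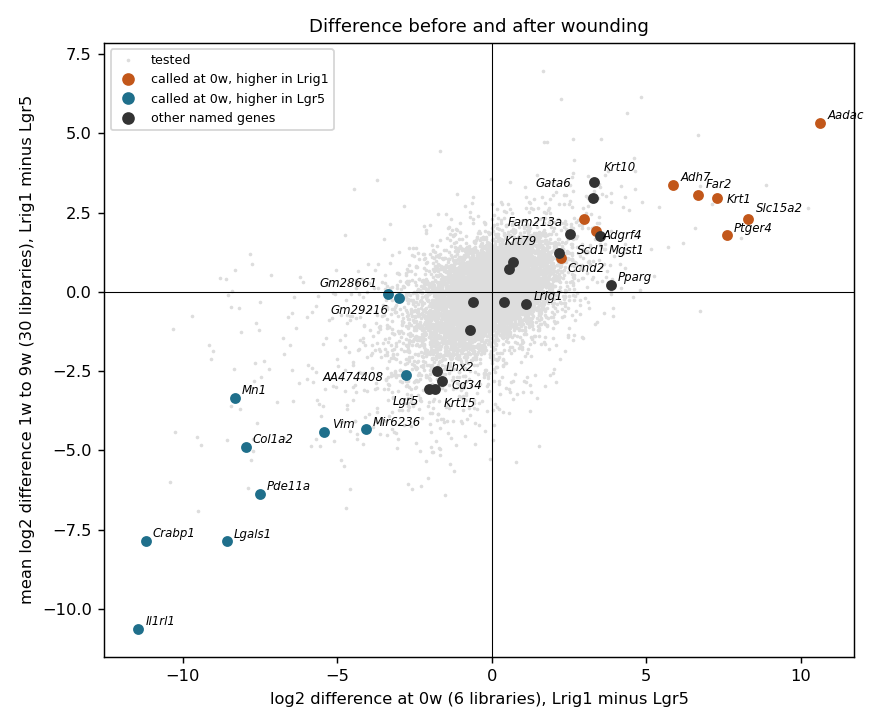
Mean log2 difference (Lrig1 minus Lgr5) over the 30 later libraries against the log2 difference at 0w, for each gene tested at 0w, with named genes as large points. The 20 genes called at 0w lie on the same side of both axis lines, Gm28661 and Gm29216 next to the horizontal axis line, and Lrig1 just below that line.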

How the data were processed

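The counts were deposited by the authors as 1 table of raw read counts per population: reads were trimmed with Trim Galore 0.5.0, aligned to mm10/GRCm38 with HISAT2 2.2.01 and counted on exons by gene name with featureCounts 1.6.12 and a GENCODE annotation. Every gene listed reaches at least 2 counts (Lrig1 GL) or 3 counts (Lgr5 GL) in some library, and tests were limited to names present in both tables. The CPM are from this work. The members and gene lists were chosen with earlier results of these data known. Gm12415 was left out before TMM scaling, and genes were kept by filterByExpr (minimum count 10). The main test was edgeR 4.0.16's quasi-likelihood F-test (R 4.3.3, prior count 0.125) with Benjamini-Hochberg adjustment, checked on simulated counts, and a gene was called at adjusted p under 0.05 and a log2 difference above 1 in size. Alternatives used DESeq2 1.42.0, limma 3.58.1 and sva 3.50.0. Named genes were the 2 label genes, up to 12 calls in each direction with the smallest adjusted p and 6 with the largest difference among those with a mean of at least 10 counts, no overlap between populations and no Gm or Rik name, up to 4 called members of each list, and the genes that define each compartment. Other genes were named after their values were seen. The replicates are 3 mice per population. Column numbers of Lgr5 GL (1, 2 and 4) differ from the labelled ones, so these libraries were called a, b and c. Positions were taken from GENCODE on GRCm38, which holds 18753 of the 18864 names. At a sequencing depth of 1490059 to 3513923 used counts, a floor of 3 counts over 3 libraries was applied.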

Additional observations from a re-analysis of the deposited data

Results flagged for a closer look

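Sv2b, named in the Lgr5 GL table alone, was at 946 CPM in the lowest of the 3 Lgr5 GL libraries at 0w and was absent from the Lrig1 GL table. Maob, named in the Lrig1 GL table alone, was at 43.9 CPM in the lowest of the 3 Lrig1 GL libraries. Gm12415 took 29.0% of all counts in the lowest of the 3 Lgr5 GL libraries and had no count in Lrig1 GL libraries at 0w. These genes lay outside the tests because 1 table does not name them or because they were left out before scaling. Of the genes named in 1 table only, 51 had at least 10 counts in each Lgr5 GL library at 0w and 1 in each Lrig1 GL library.

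For Gm28661 and Gm29216 the difference at 0w itself differed from the mean later difference, by -3.25 and -2.77 on the log2 scale (edgeR adjusted p = 0.0139 and 0.0226 for this interaction in the 36-library fit). They were 2 of 26 genes with such a call among 16652 (0.156%).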

How the results depend on the processing

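The 20 calls kept their direction in every setting in which they were tested, and all 20 remained called with size factors of DESeq2 in the same fit, with a prior count of 2, with Gm12415 kept (21 calls in all) and without mitochondrial and ribosomal protein genes (25). The counts of calls, given as total, higher in Lrig1 GL and higher in Lgr5 GL, were 484, 176 and 308 by DESeq2, 408, 129 and 279 by edgeR's likelihood ratio test, and 444, 177 and 267 in the 36-library fit, with the 20 in each. Surrogate variables left 10 (2 higher in Lrig1 GL, 6 of the 20), limma-voom, which moved the median of all genes to -0.13, gave 29 (17 higher in Lrig1 GL, 10 of the 20), and removing the GC trend 31 (18 higher in Lgr5 GL). Thinning gave 29 calls (17 higher in Lgr5 GL), and testing genes that either population names gave 30 (18 higher in Lgr5 GL). List members made up 6 of the 20 calls. They made up 103 of 484 by DESeq2, 88 of 408 by the likelihood ratio test and 74 of 444 in the 36-library fit. By limma-voom they were 13 of 29, and with surrogate variables 2 of 10. These counts carry no share of the list members tested, so they do not show whether list members were called more often than other genes. Leaving out 1 library gave 0 to 7 calls, 0 to 2 higher in Lrig1 GL, 0 to 5 higher in Lgr5 GL and 0 to 2 list members, and without Lrig1 GL library 2, where edgeR called 0, 1760 genes had an unadjusted p under 0.05 (1255 with all 6). The cause of these shifts was not tested. Requiring 10 counts in 5 libraries tested only 9 of the 20.

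The replicate block was possible only for the 4 libraries whose column numbers 1 and 2 both populations share. The correlation of their deviations was -0.0629 and 0.103, which cannot show whether libraries of the same number share more than that number. With the block edgeR called 0 genes, with 989 under 0.05 before adjustment. A fit of the same 4 libraries without a block, added after the data were seen, also gave 0, with 1371 under 0.05 before adjustment.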
